A study of Caenorhabditis elegans with 12 samples.

Results

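The effect of reduced insulin signalling in old adults of Caenorhabditis elegans was measured as the difference in RNA between daf-2(e1370) animals (strain CF1041) and wild-type animals (N2) on day 9 of adulthood. The 2 groups had 3 libraries each, labelled as biological repeats, and these were chosen by their titles as 6 of the 12 libraries of the study, which also sampled both genotypes on day 1. RNA came from whole bodies. All groups, wild type included, were fed OP50 bacteria and were treated with 50 µM FUdR, an inhibitor of DNA synthesis, from the last larval or young adult stage on. The daf-2 group is a single strain with a single allele. The e1370 mutation is a missense change that reduces receptor activity without removing the protein, so it reports on a partial loss of signalling in every tissue at once. Of 46778 genes listed, 15523 passed the filter on low counts and were tested. The question was which genes stand higher or lower in old daf-2 animals than in old wild-type animals, and whether the answer depends on treating the replicate number as a block.

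DAF-2 is the receptor for insulin and insulin-like growth factor in this animal. When insulin-like peptides bind it, the kinases AGE-1, PDK-1, AKT-1, AKT-2 and SGK-1 act in turn and keep the FOXO transcription factor DAF-16 out of the nucleus. When receptor activity is low, DAF-16 enters the nucleus and changes the transcription of genes for stress resistance, metabolism, immunity and yolk, and daf-2 mutants live longer than wild type. The heat shock factor HSF-1 and the transcription factor SKN-1 act beside DAF-16, and the p38 MAP kinase PMK-1 controls a separate set of immune effectors.

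Total counts were 20991940, 47447136 and 45563330 in the daf-2 libraries and 21666006, 22992573 and 21665059 in those of wild type, so daf-2 replicates 2 and 3 were the deepest. Levels are in CPM, a gene's counts scaled to a common library size after TMM adjustment, and log2 changes are daf-2 over wild type ± standard error. By counting error alone, a library with 0 counts of a gene may hold up to 3. Tests are edgeR's quasi-likelihood tests with Benjamini-Hochberg adjustment over all genes, and a gene was called at an adjusted p under 0.05. On the first principal component of the 6 libraries, with 65.3% of the variance, the genotypes were apart. On the second, with 18.5%, replicate 3 of both genotypes stood apart, at -28.6 in daf-2 and -30.3 in wild type, while the other 4 libraries lay between 8.75 and 18.3. Counts without these 2 libraries are given beside the results that they move.

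Tissue markers were looked up beside the label of whole bodies. They stood for muscle, intestine, neurons, hypodermis, pharynx, germ line, sperm, embryos and coelomocytes. Each tissue had markers among the genes tested, but opt-2 (intestine), ceh-22 (pharynx) and med-1 (embryos) were not among them. None that was tested was at 0 in all 6 libraries, but the filter on low counts makes such a 0 unlikely. Germline markers summed to 2720 to 3150 CPM in daf-2 and 2770 to 3110 CPM in wild type, with 0 of 5 called. Muscle markers summed to 182 to 382 CPM in daf-2 and 270 to 328 CPM in wild type, with 0 of 5 called. Intestinal markers summed to 97.5 to 190 CPM in daf-2 and 211 to 212 CPM in wild type, and of 4 tested ges-1 was higher and ifb-2 lower in daf-2. Sperm markers summed to 29.2 to 153 CPM in daf-2 and 96.4 to 417 CPM in wild type, with msp-36 and spe-11 lower of 31 tested. The part of these shifts in the results below was not tested, and in whole-animal RNA fewer cells of a type and less RNA per cell cannot be told apart.

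In old adults 1675 of the 15523 genes (10.8%) differed between daf-2 and wild type. Of these, 704 (4.54%) were higher and 971 (6.26%) were lower in daf-2, with changes of at least 2-fold for 492 and 665. Counts of list members called, given below, stand against these shares. Changes of at least 8-fold were found for 94 genes that were higher and 84 that were lower. The single libraries of the genotypes did not overlap for 37.3% of all genes tested, and for 702 of the 704 higher and 962 of the 971 lower genes. The median log2 change of all genes was 0.01. With the replicate number as a block in the fit of 12 libraries, 788 genes (5.08%) were higher and 983 (6.33%) lower, of which 659 and 906 were also called without it. The block lost 110 calls and added 206, and no gene changed direction. In a fit of only the 6 day 9 libraries the block gave 1420 higher and 2077 lower genes, against 1150 and 1215 without it, and leaving out both replicate 3 libraries gave 359 and 690. Leaving out a single library gave 492 higher and 706 lower genes without daf-2 replicate 1, 547 and 622 without daf-2 replicate 2, 520 and 875 without daf-2 replicate 3, 418 and 686 without wild-type replicate 1, 399 and 633 without wild-type replicate 2, and 455 and 830 without wild-type replicate 3.

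**Figure D1:**
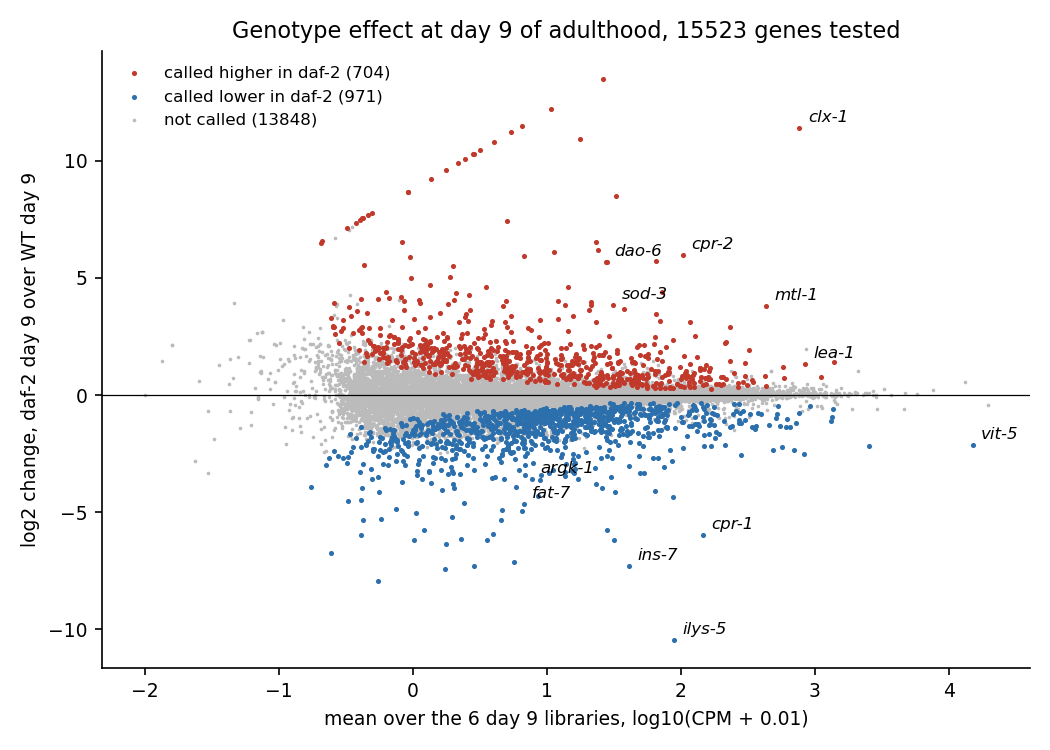
Log2 change, daf-2 over wild type at day 9 (vertical axis), against the mean level over the 6 libraries as log10(CPM + 0.01) (horizontal axis), 1 point per gene tested. The 704 red points are genes called higher and the 971 blue points genes called lower in daf-2, and the points spread to both sides at every level.

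Components of the insulin pathway itself were called for 12% as higher and 4% as lower, against 4.54% and 6.26% over all genes. The daf-2 mRNA (III, 2994514 to 3040846) stood at 135, 149.9 and 182 CPM in daf-2 and 140.2, 103 and 129 CPM in wild type, with overlapping libraries (log2 change 0.33 ± 0.14, adjusted p = 0.168). Since e1370 changes the protein, this level does not check the genotype labels. Of 25 components tested (of 28 listed), 3 were higher and 1 lower, with a median change of 0.16. The mRNA of daf-16 (I, 10750498 to 10776703) was at 163, 188 and 188 CPM in daf-2, above the 141, 117 and 133 CPM of wild type in every library (log2 change 0.47 ± 0.11, adjusted p = 0.0195). That call was lost on leaving out both replicate 3 libraries (0.126), daf-2 replicate 2 (0.0704), daf-2 replicate 3 (0.0644), wild-type replicate 2 (0.102) and wild-type replicate 3 (0.0537), the adjusted p then standing in brackets, here and below. The kinase gene akt-2 (X, 14147700 to 14152070) had 37.2, 39.4 and 52 CPM in daf-2 and 25.5, 25 and 26.6 CPM in wild type (0.74 ± 0.14, adjusted p = 0.00391). The related akt-1 changed by 0.36 ± 0.10 (adjusted p = 0.0457). The kinase gene sgk-1 (X, 16254842 to 16262122) was the lower member, with 15.8, 13.6 and 20.9 CPM in daf-2 and 34.3, 37.9 and 41.6 CPM in wild type (-1.18 ± 0.18, adjusted p = 0.000937). Higher components numbered 1 without daf-2 replicate 2 or 3, without wild-type replicate 2 or 3 and without both replicate 3 libraries.

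Insulin-like peptides, the candidate ligands of DAF-2, were divided. Of 39 genes listed 27 were tested, with a median of 0.20. Of these 4 were higher and 4 lower, 14.8% each, against 4.54% and 6.26% over all genes. The lower members were led by ins-7 (IV, 9682011 to 9682845), a peptide gene repressed by DAF-16. It had 0.52, 0.288 and 0.725 CPM in daf-2, against 79, 98.7 and 65.1 CPM in wild type, so that every daf-2 library was below 1 CPM (log2 change -7.31 ± 0.48, adjusted p = 3.19e-06). The gene ins-8 had 0, 0.018 and 0.0207 CPM in daf-2 and 3.45, 4.18 and 2.77 CPM in wild type, and its 0 to 0.0207 CPM in daf-2 are at or under the counting floor. The genes ins-11 and ins-4 changed by -2.50 ± 0.60 and -1.98 ± 0.36. On the other side ins-22 (III, 10026289 to 10026686) had 16.11, 9.37 and 22.6 CPM in daf-2 and 2.01, 1.92 and 1.34 CPM in wild type (3.18 ± 0.32, adjusted p = 5.72e-05). The gene ins-23 had 4.24, 2.88 and 6.11 CPM in daf-2 and 0.739, 0.23 and 0.335 CPM in wild type (3.34 ± 0.49). The genes ins-35 and ins-10 changed by 2.46 ± 0.53 and 1.81 ± 0.43. The ligand gene daf-28 was low in both genotypes, with 0.679, 1.3 and 0.974 CPM in daf-2 and 1.03, 1.34 and 1.13 CPM in wild type (adjusted p = 0.821). In all 8 called genes the genotypes did not overlap, as in 37.3% of all genes tested and nearly all called ones. The 4 lower ones were under 1 CPM in every daf-2 library.

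Genes that the literature gives as raised in daf-2 mutants through DAF-16 were mostly higher in old animals as well. Of 27 tested, 19 were higher (70.4%) and 4 lower (14.8%), against 4.54% and 6.26% over all genes. Their median log2 change was 0.92, against 0.01 over all genes. Because the list was drawn from daf-2 mutants, its direction is no independent evidence. The mitochondrial superoxide dismutase gene sod-3 (X, 17092753 to 17094306) had 35.6, 84.9 and 54.2 CPM in daf-2 and 3.9, 5.02 and 3.27 CPM in wild type (3.84 ± 0.28, adjusted p = 6.4e-06). The metallothionein gene mtl-1 (V, 6691371 to 6691863), which binds metals, had 617, 849.9 and 941 CPM in daf-2 and 38.7, 54.8 and 81.4 CPM in wild type (3.78 ± 0.46, adjusted p = 0.000202). Both genes were far above wild type in each of the 3 daf-2 libraries. The gene dod-6 had 354, 277 and 600.1 CPM in daf-2 and 60.4, 42 and 64.2 CPM in wild type (2.89 ± 0.29). The nuclear hormone receptor gene nhr-62 (I, 9839598 to 9844809) had 34.6, 30.5 and 38.3 CPM in daf-2 and 8.01, 8.81 and 7.25 CPM in wild type (2.1 ± 0.16, adjusted p = 7.63e-06). A smaller rise was that of lea-1, a gene of a desiccation protein family, with 1002, 1503 and 1105 CPM in daf-2 and 517, 416 and 516 CPM in wild type (1.32 ± 0.19). The long noncoding RNA tts-1 had 1151, 1608 and 1449 CPM in daf-2 and 752, 823 and 884 CPM in wild type (0.78 ± 0.19). Of the 4 targets that went the other way, the second metallothionein gene mtl-2 (V, 14018270 to 14018673) had 5.67, 3.88 and 10.6 CPM in daf-2 and 17.8, 38.6 and 75.6 CPM in wild type (-2.71 ± 0.48, adjusted p = 0.00289). The other 3 were the thaumatin gene thn-2, the saposin gene spp-1 and the glyoxylate cycle gene icl-1, at -2.16 ± 0.37, -1.60 ± 0.23 and -1.37 ± 0.36. Thus the 2 metallothionein genes moved in opposite directions.

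Genes that the literature gives as lowered in daf-2 mutants were lower for 7 of 16 tested and higher for 0, with a median of -1.15. The share called lower was 43.8%, against 6.26% over all genes. The direction of this list was also known beforehand. Beside ins-7 they were lys-10, dod-22, dod-24, dod-23, vit-5 and nuc-1. The CUB-like gene dod-22 (IV, 12965374 to 12967392) had 0.04, 0 and 0.0415 CPM in daf-2 and 0.945, 0.69 and 1.68 CPM in wild type (adjusted p = 9.51e-05). Its 3 counts in daf-2 against 81 in wild type, scaled for depth, gave a ratio of 0.0214, with an exact 95% interval of 0.00432 to 0.0647 for counting error only. The gene dod-23 had 18.6, 15 and 20.7 CPM in daf-2 and 135, 139 and 78.8 CPM in wild type (-2.70 ± 0.33). The nuclease gene nuc-1 had 46.5, 31.4 and 54.8 CPM in daf-2 and 102, 123 and 111.8 CPM in wild type (-1.35 ± 0.27). Replicate 3 of both genotypes was the highest for dod-24, with 1.4, 1.51 and 9.14 CPM in daf-2 and 13.3, 11.5 and 57.1 CPM in wild type (-2.73 ± 0.76, adjusted p = 0.0367), and the genotypes' ranges did not meet.

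**Figure D2:**
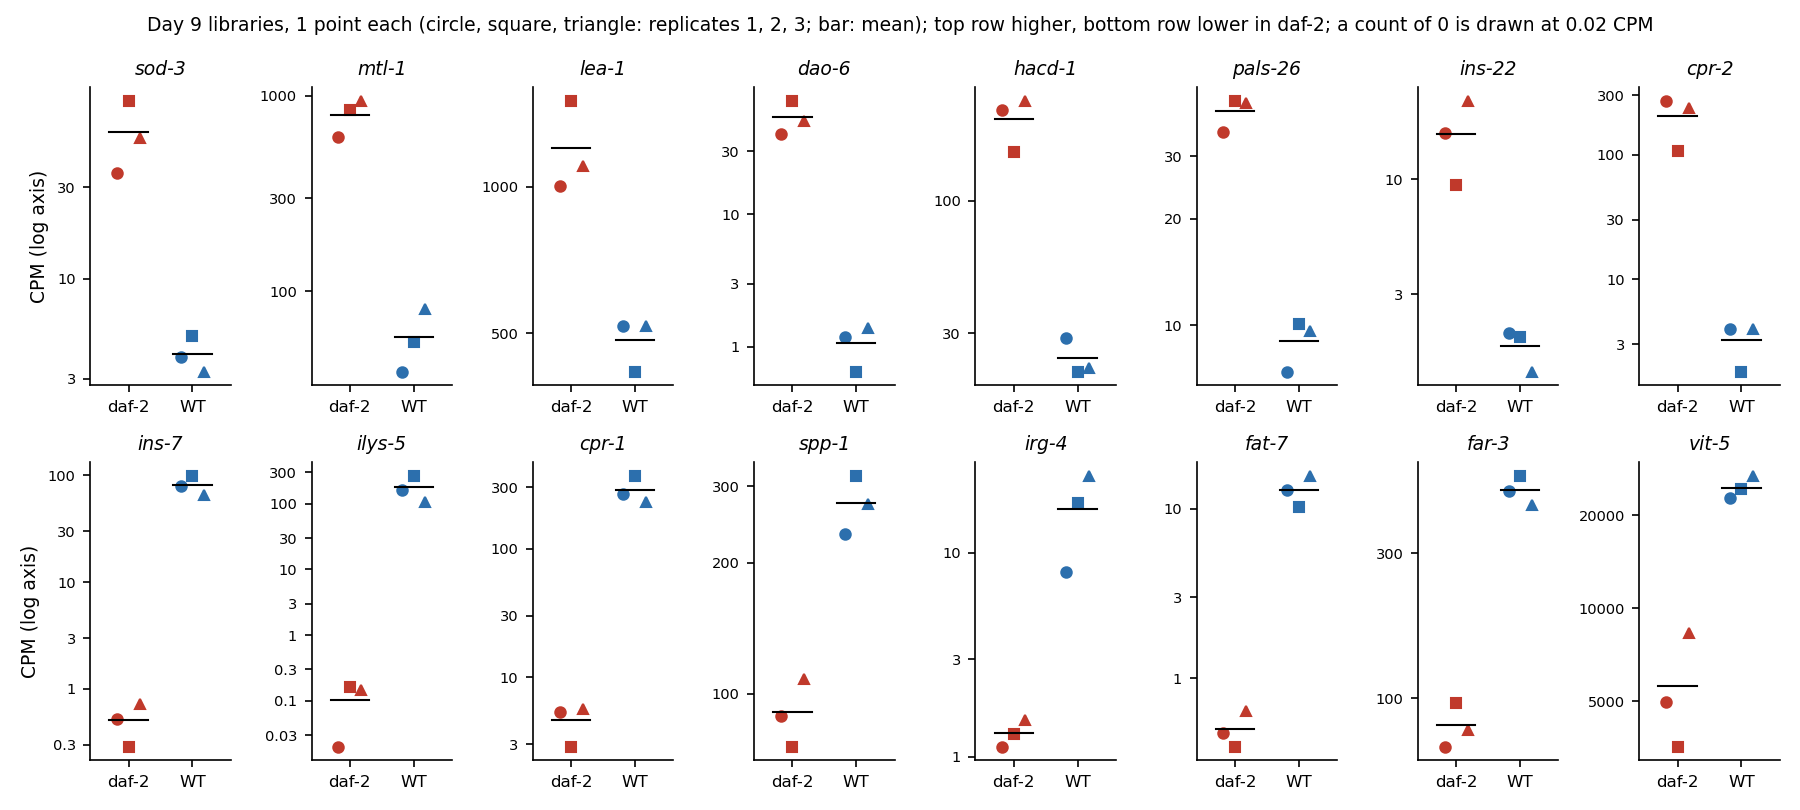
CPM on log axes of 16 genes in the 3 daf-2 libraries (red) and the 3 wild-type libraries (blue) of day 9, with the mean as a bar and a count of 0 drawn at 0.02 CPM. The upper 8 genes are higher and the lower 8 lower in daf-2. In none of the 16 do the genotypes overlap, which also held for nearly all called genes.

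Few transcription factor genes of longevity and stress were called, and their median log2 change was 0.002, against 0.01 over all genes. The share called higher was 7.41%, against 4.54% over all genes. The share called lower was also above the 6.26% over all genes, but both shares rest on few genes. Of 27 tested, 2 were higher (daf-16 and nhr-62; 1 without daf-2 replicate 2 or 3, without wild-type replicate 2 or 3 and without both replicate 3 libraries) and 3 lower. The gene of the heat shock factor, hsf-1 (I, 11953507 to 11963085), had 72.5, 77.1 and 79.2 CPM in daf-2 and 69.5, 65.6 and 66 CPM in wild type (0.19 ± 0.10, adjusted p = 0.286). The gene skn-1 (IV, 5651039 to 5660384) had 239, 262 and 267 CPM in daf-2 and 233, 208 and 231 CPM in wild type (0.19 ± 0.12, adjusted p = 0.371). For both the libraries did not overlap, but the difference was not called. The bZIP factor gene zip-10 (V, 11650079 to 11650762) was lower, with 26.4, 12.5 and 20.3 CPM in daf-2 and 43.2, 45.4 and 42.6 CPM in wild type (-1.16 ± 0.32, adjusted p = 0.038). Its call was lost on leaving out both replicate 3 libraries (0.132), daf-2 replicate 2 (0.124), daf-2 replicate 3 (0.0818), wild-type replicate 1 (0.0887), wild-type replicate 2 (0.104) and wild-type replicate 3 (0.0747), while the log2 change stayed between -1.42 and -0.91 over all alternatives tried. Scaling by total counts also ended it (0.0556). The lysosome and autophagy regulator gene hlh-30 (IV, 4014793 to 4034951) had 57.2, 54.9 and 74.6 CPM in daf-2 and 98.7, 82.3 and 111 CPM in wild type (-0.64 ± 0.13, adjusted p = 0.00685). The zinc-finger gene egl-43 (II, 9955185 to 9963020) had 4.4, 3.88 and 4.23 CPM in daf-2 and 11.6, 10.5 and 9.64 CPM in wild type (-1.35 ± 0.24, adjusted p = 0.00261). Among 196 nuclear hormone receptor genes 3 were higher and 3 lower, which is below the share over all genes. They were nhr-62, nhr-57 and nhr-1 on the higher side, and nhr-58, nhr-11 and nhr-14 (X, 8473722 to 8476178; -0.75 ± 0.15, adjusted p = 0.00498) on the lower side.

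The largest rises among well-measured named genes covered a protease, a saposin, receptor and enzyme genes. The gene clx-1 (IV, 7734648 to 7736324) had the largest, with 750.4, 2647 and 1199 CPM in daf-2 and 1.03, 0.345 and 0.335 CPM in wild type (11.39 ± 0.68, adjusted p = 1.43e-06). It was followed by cpr-2 (V, 16532936 to 16534100), a cathepsin B-like protease gene, with 269.9, 107 and 239 CPM in daf-2 and 3.94, 1.8 and 3.98 CPM in wild type (5.99 ± 0.71, adjusted p = 0.000181). The saposin-like gene spp-20 (V, 6557615 to 6558203) had 122.4, 202 and 60 CPM in daf-2 and 2.71, 2.18 and 2.35 CPM in wild type (5.73 ± 0.65, adjusted p = 0.000131). In these 3 genes no daf-2 library came near wild type. The gene dao-6 (III, 9735263 to 9736201) had 40.7, 71.6 and 51 CPM in daf-2 and 1.19, 0.651 and 1.38 CPM in wild type (5.66 ± 0.32, adjusted p = 7.43e-07). Next came unc-38 (I, 4897620 to 4900974), a subunit gene of the nicotinic acetylcholine receptor, with 37.3, 43.3 and 39.3 CPM in daf-2 and 3.12, 2.72 and 2.47 CPM in wild type (3.85 ± 0.16). Its neighbour, the methyltransferase gene icmt-1 (I, 4901918 to 4903264), had 109, 148 and 102 CPM in daf-2 and 12.7, 12.56 and 7.12 CPM in wild type (3.47 ± 0.27). A methyltransferase gene of another family, comt-4 (V, 2049217 to 2050185), had 37.6, 40.7 and 37 CPM in daf-2 and 3.98, 2.68 and 2.6 CPM in wild type (3.64 ± 0.62, adjusted p = 0.00229). The remaining genes among the 10 largest rises were sod-3, mtl-1 and the lectin gene clec-15.

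At the other end, ilys-5 (X, 6533490 to 6536840), an invertebrate-type lysozyme gene, had 0, 0.162 and 0.145 CPM in daf-2 and 162, 265 and 108 CPM in wild type (-10.45 ± 0.63, adjusted p = 1.43e-06). The cathepsin B-like gene cpr-5 (V, 1132598 to 1134036) had 1.36, 0.559 and 0.767 CPM in daf-2 and 68.3, 93.5 and 24.7 CPM in wild type (-6.21 ± 0.64, adjusted p = 6.56e-05). Its homologue cpr-1 (V, 11975551 to 11976756) had 5.36, 2.88 and 5.68 CPM in daf-2 and 267, 367 and 229 CPM in wild type (-5.97 ± 0.48, adjusted p = 9.14e-06). The related cpr-4 (V, 6614674 to 6615851) had 14.8, 2.97 and 4.21 CPM in daf-2 and 111, 181 and 70.3 CPM in wild type (-4.11 ± 0.59, adjusted p = 0.000645). The aspartyl protease gene asp-17 (V, 19035723 to 19037322) had 0.679, 0.667 and 1.68 CPM in daf-2 and 49.1, 66.5 and 51.4 CPM in wild type (-5.75 ± 0.43, adjusted p = 6.4e-06). Levels in daf-2 were under 15 CPM in every library for all 5 genes. Of 24 cathepsin-like and aspartyl protease genes tested, 7 were lower and 2 higher (cpr-2 and asp-9), with a median of -0.07. These shares were 29.2% and 8.33%, against 6.26% and 4.54% over all genes. The other lower ones were cpr-8, cpl-1 and asp-1. The cathepsin L gene cpl-1 had 321, 281 and 338 CPM in daf-2 and 768, 802 and 766 CPM in wild type (-1.31 ± 0.14). The aspartyl protease gene asp-1 had 151, 58.4 and 272 CPM in daf-2 and 803, 703 and 933 CPM in wild type (-2.34 ± 0.42). Higher protease genes numbered 4 without daf-2 replicate 2, and 1 without daf-2 replicate 1, without wild-type replicate 1, 2 or 3 and without both replicate 3 libraries.

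Most of the called antimicrobial genes were lower in old daf-2 animals. Of 13 lysozyme genes tested, whose enzymes break bacterial cell walls, 7 were lower and 0 higher, with a median of -0.97. The share called lower was 53.8%, against 6.26% over all genes. The invertebrate-type gene ilys-2 had 0.32, 0.162 and 0.207 CPM in daf-2 and 7.47, 11.3 and 7.79 CPM in wild type (-5.32 ± 0.50). Another, ilys-3, had 15.9, 12.2 and 7.38 CPM in daf-2 and 50.4, 61.7 and 28.9 CPM in wild type (-2.0 ± 0.31, adjusted p = 0.00118). Protist-type genes lys-10 and lys-5 were under 0.1 CPM in every daf-2 library, against 1.05 to 2.97 CPM in wild type. The calls of lys-1 (206, 92.8 and 229 CPM in daf-2 and 345, 389.8 and 363 CPM in wild type; -1.06 ± 0.30, adjusted p = 0.0429) and ilys-4 (-0.97 ± 0.28, adjusted p = 0.0421) were lost with the replicate block (adjusted p = 0.0664 and 0.0542). The gene lys-7, a DAF-16 target, had 3003, 3483 and 4693 CPM in daf-2 and 4931, 6338 and 5430.0 CPM in wild type (-0.58 ± 0.22, adjusted p = 0.119) and was not called.

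Saposin-like genes, which encode peptides that disrupt membranes, were lower for 12 of 24 tested, with a median of -0.89. The share was 50%, against 6.26% over all genes. Among the lower members spp-23 had the smallest p (I, 1018843 to 1019157), with 2.68, 1.08 and 1.8 CPM in daf-2 and 7.43, 9.61 and 8.17 CPM in wild type (-2.21 ± 0.29, adjusted p = 0.000338). The pore-forming spp-1 (III, 10355098 to 10355668) had 88.7, 75.6 and 108 CPM in daf-2 and 233, 317 and 273 CPM in wild type (-1.60 ± 0.23, adjusted p = 0.000752). The gene spp-5 had 419.9, 278 and 612 CPM in daf-2 and 858, 1252 and 900.5 CPM in wild type (-1.2 ± 0.28). In spp-9 (X, 11487784 to 11488203), with 3.64, 2.51 and 0.56 CPM in daf-2 and 27.1, 24.8 and 7.71 CPM in wild type (-3.19 ± 0.79, adjusted p = 0.0212), replicate 3 was the lowest in both genotypes, and the call was lost on leaving out daf-2 replicate 2 (0.0616), daf-2 replicate 3 (0.0567), wild-type replicate 1 (0.0673) and wild-type replicate 2 (0.0659). The single higher member was spp-20, given above, and leaving out libraries added others (4 without wild-type replicate 3, 3 without daf-2 replicate 3 and without both replicate 3 libraries, and 2 without daf-2 replicate 2 and without wild-type replicate 1 or 2).

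Among 33 peptide genes of the epidermis (caenacins, the nlp-29 cluster and fip and fipr genes) 14 were lower and 4 higher, with a median of -1.09. These shares were 42.4% and 12.1%, against 6.26% and 4.54% over all genes. The smallest p was that of nlp-27 (V, 3989378 to 3989770), with 65, 57 and 72.6 CPM in daf-2 and 138, 177 and 174 CPM in wild type (-1.33 ± 0.13, adjusted p = 4.63e-05). The caenacin gene cnc-6 had 3.32, 1.17 and 2.51 CPM in daf-2 and 23, 27.7 and 24.5 CPM in wild type (-3.45 ± 0.37). The gene nlp-34 had 6.91, 1.73 and 5.51 CPM in daf-2 and 34.8, 49.5 and 38.3 CPM in wild type (-3.13 ± 0.39). The 4 higher genes were fipr-24 (I, 14157611 to 14158078; 1.64 ± 0.18, adjusted p = 0.000111), fipr-26, fipr-23 and cnc-11. Of 7 defensin-like and thaumatin genes, thn-2 (IV, 12383170 to 12383974; 44.6, 55.2 and 61.7 CPM in daf-2 and 225, 290.1 and 208 CPM in wild type) and abf-5 were lower, with log2 changes of -2.16 ± 0.37 and -2.13 ± 0.45. The defensin-like gene abf-2 (I, 3885631 to 3885888) was higher, with 272, 620.1 and 164 CPM in daf-2 and 72.8, 96.5 and 60.4 CPM in wild type (2.20 ± 0.49, adjusted p = 0.0114). Its call was lost on leaving out wild-type replicate 1 (0.0507), and it lies wholly inside C50F2.2 on the other strand, which unstranded reads cannot separate.

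C-type lectin genes, many of which respond to bacteria, had 31 lower and 10 higher members among 118 tested, with a median of -0.41. These shares were 26.3% and 8.47%, against 6.26% and 4.54% over all genes. The gene clec-10 (II, 402678 to 404180) had 0.04, 0.0901 and 0.0829 CPM in daf-2 and 11, 13.1 and 9.72 CPM in wild type (-7.12 ± 0.34, adjusted p = 2.18e-07). The gene clec-218 (V, 8307942 to 8310766) had 0.919, 0.252 and 1.37 CPM in daf-2 and 14.6, 17.9 and 16.9 CPM in wild type (-4.30 ± 0.51, adjusted p = 0.000168). Neither came near wild type in any daf-2 library. The genes clec-41 and clec-146 changed by -1.84 ± 0.39 and -1.73 ± 0.13. On the higher side clec-61 (II, 10488730 to 10490537) had 12.63, 12 and 9.14 CPM in daf-2 and 2.96, 3.56 and 3.02 CPM in wild type (1.82 ± 0.26, adjusted p = 0.000638). The nearby gene clec-60 (II, 10480043 to 10481874) had 4.16, 2.07 and 3.9 CPM in daf-2 and 9.65, 10.1 and 12.61 CPM in wild type (-1.68 ± 0.55, adjusted p = 0.0734, and 0.0348 with the replicate block). The gene clec-15 (I, 12635172 to 12636542) had 23.5, 5.41 and 48.3 CPM in daf-2 and 1.23, 1.69 and 2.51 CPM in wild type (3.83 ± 0.64, adjusted p = 0.00188, not called with limma-voom). A second identifier carries the same symbol, so its reads may be split. The 2 together had 23.5, 10.8 and 54.3 CPM in daf-2 and 2.46, 3.37 and 5.03 CPM in wild type.

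The p38 MAP kinase pathway was measured by its components and its effectors. Of 15 components tested 0 were called in either direction by edgeR's main fit. At an unadjusted p under 0.05 it gave 1 higher and 2 lower. DESeq2, limma-voom and edgeR with the replicate block over 12 libraries each called 1 as lower. In the fits of 6 libraries edgeR called 2 as lower, with and without the block. The kinase gene pmk-1 (IV, 8148794 to 8151266) had 26.7, 30.4 and 28.6 CPM in daf-2 and 31.7, 33 and 32.3 CPM in wild type (-0.18 ± 0.12, adjusted p = 0.39). Of 20 effectors tested, genes that need PMK-1 for their expression, 9 were lower and 1 higher, with a median of -1.46. These shares were 45% and 5%, against 6.26% and 4.54% over all genes. Lower effectors numbered 5 without daf-2 replicate 1 and without wild-type replicate 3. In the fits of 6 libraries they numbered 5 without the block and 11 with it. The gene irg-4 (IV, 12435833 to 12438236) had 1.12, 1.3 and 1.51 CPM in daf-2 and 8.05, 17.5 and 23.8 CPM in wild type (-3.63 ± 0.32, adjusted p = 2.08e-05). The gene sysm-1 (II, 9082626 to 9083193) had 6.03, 3.1 and 2.61 CPM in daf-2 and 26.9, 45.2 and 13.3 CPM in wild type (-2.90 ± 0.41, adjusted p = 0.000568), with replicate 3 the lowest in both genotypes. The lectin gene clec-85 (IV, 2850886 to 2855456) was the higher effector, with 282, 193 and 599.7 CPM in daf-2 and 77.5, 68.6 and 76.6 CPM in wild type (2.27 ± 0.42, adjusted p = 0.00359), and a second was called without daf-2 replicate 2. It overlaps Y54G2A.49 on the other strand, at 12.63 CPM in daf-2 and 1.71 CPM in wild type.

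**Figure D3:**
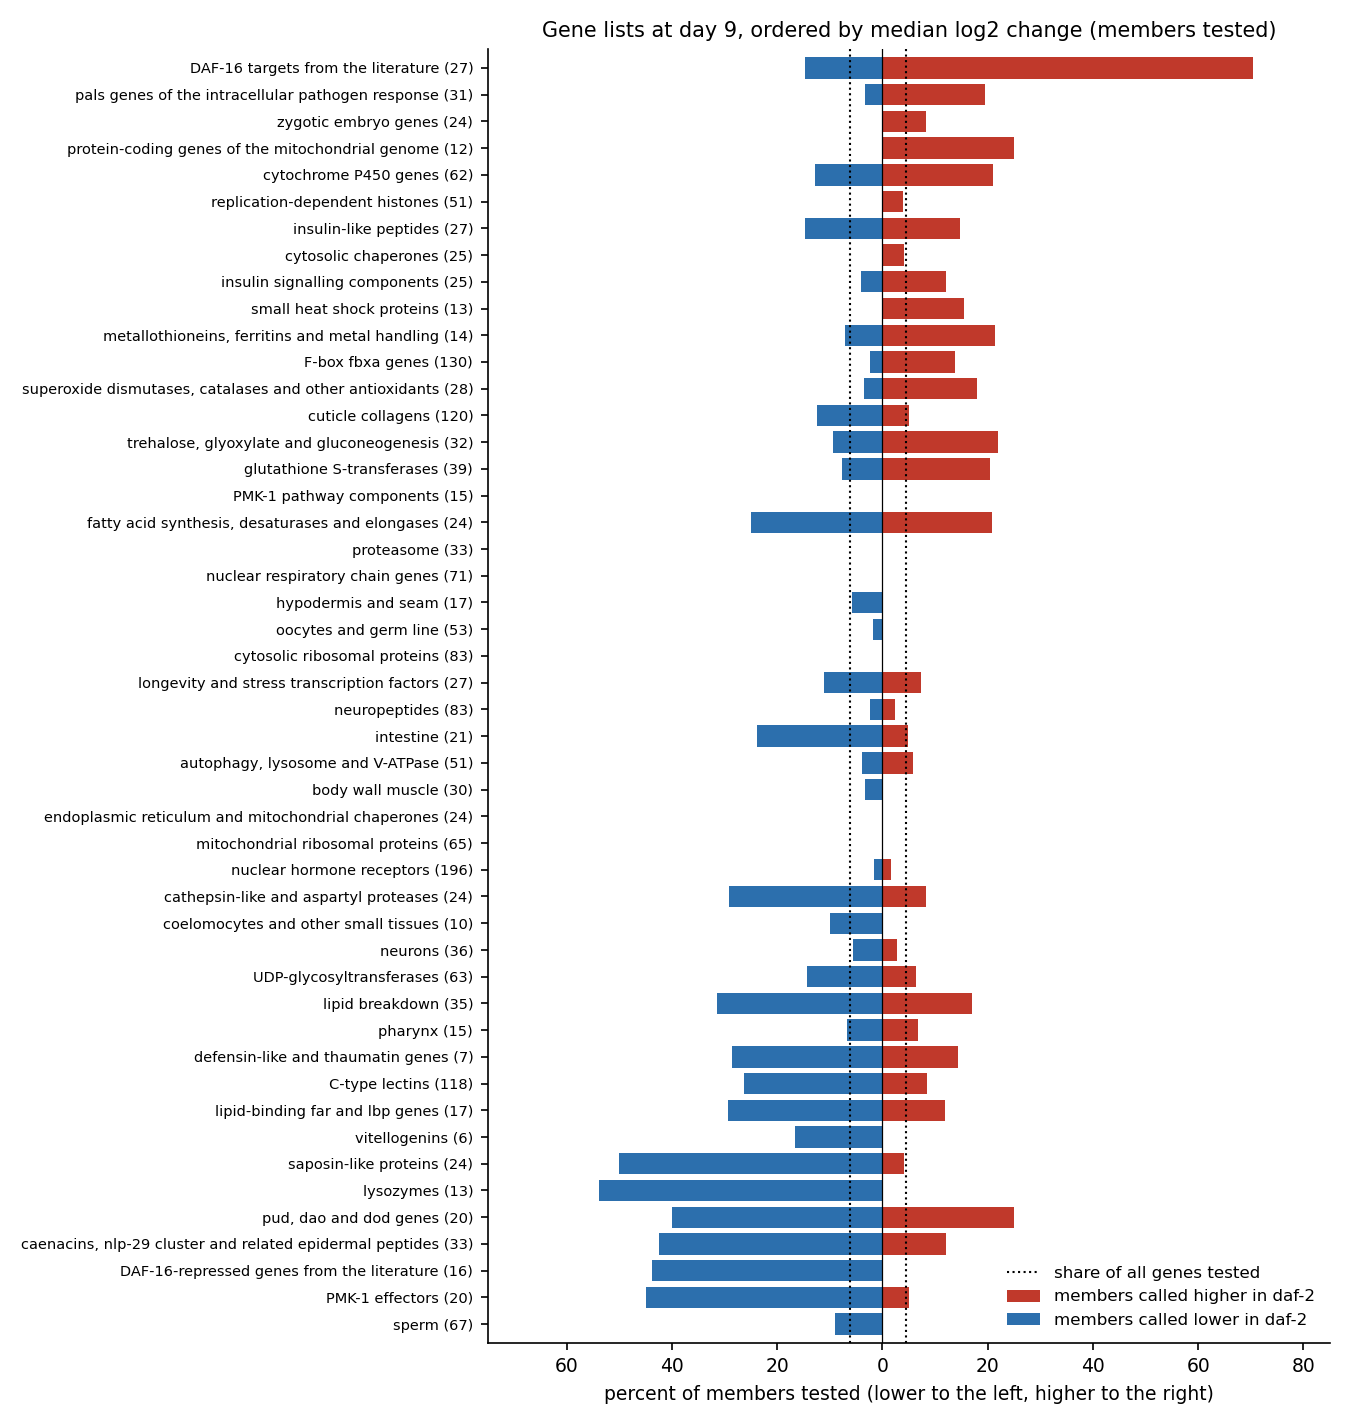
Percent of the tested members of 48 gene lists (number tested in brackets) called higher in daf-2 at day 9 (red, to the right) and lower (blue, to the left), ordered by the median log2 change. Dotted lines mark the shares over all genes, 4.54% higher and 6.26% lower. DAF-16 targets reach furthest to the right, and lysozymes and saposin-like genes furthest to the left.

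Genes of the intracellular pathogen response went the other way. Of 31 pals genes tested, which are induced by microsporidia and viruses, 6 were higher (19.4%) and 1 lower (3.23%), with a median of 0.82. Over all genes the shares were 4.54% and 6.26%. Higher pals genes numbered 3 without daf-2 replicate 1 or 2, without wild-type replicate 1 or 3 and without both replicate 3 libraries. The gene pals-26 (III, 4375154 to 4378907) had 35.2, 43 and 42.4 CPM in daf-2 and 7.39, 10.1 and 9.64 CPM in wild type (2.15 ± 0.17, adjusted p = 7.63e-06). The genes pals-6 and pals-14 changed by 1.57 ± 0.44 and 2.24 ± 0.48, the first not called with the replicate block (0.0572). The lower member, pals-1 (I, 11579856 to 11581989; 0.759, 0.901 and 0.601 CPM in daf-2 and 1.77, 1.46 and 2.18 CPM in wild type, adjusted p = 0.0454), was not called with the replicate block (0.052), without the filter (0.0546), with 2 other scalings (0.0548 and 0.0749), nor when any single library was left out (0.0759 to 0.139). Of 130 F-box genes of the fbxa family 18 were higher (13.8%) and 3 lower (2.31%). Higher fbxa genes numbered 11 without daf-2 replicate 3 and without wild-type replicate 1, and 5 without both replicate 3 libraries. Lower ones numbered 1 without daf-2 replicate 1 and without wild-type replicate 1 or 2, and 0 without daf-2 replicate 2 and without both replicate 3 libraries. The lower member with the smallest p was fbxa-72 (V, 674886 to 676753; -1.32 ± 0.33, adjusted p = 0.0212), a call lost in the fit of 6 libraries (0.0635) and on leaving out both replicate 3 libraries (0.182), daf-2 replicate 2 (0.0875), daf-2 replicate 3 (0.0781), wild-type replicate 1 (0.0701) and wild-type replicate 3 (0.0737). The higher member with the smallest p, fbxa-189 (V, 17345214 to 17347781), had 7.59, 7.9 and 8.75 CPM in daf-2 and no read in wild type at day 9 (adjusted p = 4.83e-06). It is 1 of 15 genes with no read in the 3 wild-type libraries and a mean of 1 CPM or more in daf-2. Of these 14 lie on chromosome V, 10 of them within 204 kb (V, 17342791 to 17546974). In that window all 15 tested genes were called higher, 4 fbxa genes among them. The window was drawn around the 10 genes, which were picked for having no read in wild type at day 9. With 0 or 1 wild-type counts, the tested genes passed the low-count filter only through daf-2 libraries. Their calls are therefore no independent evidence. Their counts summed over the 3 libraries were 59 to 6752 in daf-2 and 0 or 1 in wild type at day 9, and 16 to 1812 in daf-2 and 0 or 1 in wild type at day 1. For the 10 genes that had 0 counts in wild type and a mean of 1 CPM or more in daf-2, the level in daf-2 was at least 45.4-fold to at least 1290-fold higher, against a floor of 3 counts over the wild-type group. A difference between the strains in the DNA of this window and one in its transcription cannot be told apart.

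Among stress proteins, 17.9% of antioxidant and 15.4% of small heat shock protein genes were called higher, against 4.54% over all genes. The second share rests on few genes. For cytosolic chaperones the share was 4%, and for those of the endoplasmic reticulum and mitochondria 0%. Of 13 small heat shock protein genes tested 2 were higher. The gene hsp-12.3 (IV, 9444791 to 9445507) had 5.36, 18.6 and 4.1 CPM in daf-2 and 0.411, 0.843 and 0.461 CPM in wild type (4.02 ± 0.59, adjusted p = 0.000739). The gene hsp-12.6 had 2.4, 9.83 and 1.47 CPM in daf-2 and 0.37, 0.613 and 0.251 CPM in wild type (3.46 ± 0.66, adjusted p = 0.00473). Both were highest in daf-2 replicate 2. The heat-inducible gene hsp-16.2 (V, 1804334 to 1804957), which HSF-1 controls, had 8.91, 6.83 and 8.39 CPM in daf-2 and 5.5, 6.93 and 6.33 CPM in wild type (0.36 ± 0.52, adjusted p = 0.718), with overlapping libraries. Among 25 cytosolic chaperone genes 1 was higher, hsp-70 (I, 9320325 to 9322519), with 23.1, 29.4 and 37.6 CPM in daf-2 and 6.33, 8.77 and 7.88 CPM in wild type (1.97 ± 0.32, adjusted p = 0.00176). Among 24 chaperone genes of the endoplasmic reticulum and mitochondria 0 were called by DESeq2, limma-voom or edgeR's main fit of 12 libraries. At an unadjusted p under 0.05 the main fit gave 2 higher and 0 lower. In the fits of only the 6 day 9 libraries edgeR called 2 as higher, with and without the block. Of 28 antioxidant genes 5 were higher and 1 lower. The 3 catalase genes ctl-1, ctl-2 and ctl-3, which break down hydrogen peroxide, changed by 1.02 ± 0.20, 0.77 ± 0.17 and 1.65 ± 0.24. The superoxide dismutase gene sod-5 had 4.72, 10.2 and 3.54 CPM in daf-2 and 1.4, 1.8 and 1.42 CPM in wild type (2.0 ± 0.51). The thioredoxin gene trx-3 (IV, 4487028 to 4489000) was lower, with 1.36, 1.26 and 1.39 CPM in daf-2 and 7.27, 9.5 and 7 CPM in wild type (-2.57 ± 0.41, adjusted p = 0.00132). Higher antioxidant genes numbered 3 without wild-type replicate 1 and without both replicate 3 libraries. In the metal-handling list 3 of 14 were higher (mtl-1, cdr-2 and cdr-3) and 1 lower (mtl-2; 2 without daf-2 replicate 3 and without both replicate 3 libraries, and 2 with the replicate block).

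Detoxification enzymes were called in both directions. Of 62 cytochrome P450 genes 13 were higher (21%) and 8 lower (12.9%), against 4.54% and 6.26% over all genes. The gene cyp-33C2 (V, 2183488 to 2186599) had 3.44, 4.11 and 3.98 CPM in daf-2 and 0.123, 0.23 and 0.335 CPM in wild type (4.04 ± 0.52, adjusted p = 0.000306). The gene cyp-34A9 had 59.8, 84.5 and 84.2 CPM in daf-2 and 16.22, 17.7 and 20.5 CPM in wild type (2.07 ± 0.31). On the lower side cyp-14A5 (V, 5421018 to 5423282) had 151, 88.7 and 177 CPM in daf-2 and 348, 344 and 346 CPM in wild type (-1.32 ± 0.20, adjusted p = 0.000925). Higher P450 genes numbered 8 without daf-2 replicate 1 and without both replicate 3 libraries, 7 without wild-type replicate 2, and 6 without wild-type replicate 1. Of 39 glutathione S-transferase genes 8 were higher (20.5%) and 3 lower (7.69%), the share of lower ones being near the 6.26% over all genes. The gene gst-3 (IV, 10139380 to 10140243) had 6.19, 8.71 and 5.99 CPM in daf-2 and 0.534, 0.919 and 0.88 CPM in wild type (3.16 ± 0.33, adjusted p = 6.33e-05). The lower gst-22 (V, 16231032 to 16232282) had 3.76, 4.11 and 5.12 CPM in daf-2 and 11.3, 12.79 and 10.7 CPM in wild type (-1.41 ± 0.31, adjusted p = 0.0113). Higher transferase genes numbered 5 without daf-2 replicate 3, and 4 without wild-type replicate 1 or 2. Lower ones numbered 1 without wild-type replicate 2. Of 63 UDP-glycosyltransferase genes 4 were higher (2 without wild-type replicate 1 or 2) and 9 lower. These shares were 6.35% and 14.3%. The smallest p-values belonged to ugt-50 (X, 12691573 to 12695652; 1.31 ± 0.17, adjusted p = 0.000331) and ugt-9 (V, 4896048 to 4897969; -1.80 ± 0.24, adjusted p = 0.000391).

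Lipid breakdown genes were more often lower than higher. Of 35 tested 11 were lower (31.4%) and 6 higher (17.1%), against 6.26% and 4.54% over all genes, with a median of -0.16. The carnitine palmitoyltransferase gene cpt-5 (V, 13873195 to 13875888) had 3.84, 2.58 and 2.53 CPM in daf-2 and 29.5, 28.8 and 25.9 CPM in wild type (-3.26 ± 0.24, adjusted p = 6.4e-06). Its homologues cpt-3 and cpt-4 changed by -2.92 ± 0.37 and -2.36 ± 0.42. The peroxisomal genes acox-1.1, maoc-1, dhs-28 and daf-22, whose enzymes shorten the side chains of ascaroside pheromones, changed by -1.41 ± 0.19, -1.15 ± 0.18, -0.94 ± 0.17 and -0.99 ± 0.18. For these 4 genes the libraries of the genotypes did not overlap, which also held for 37.3% of all genes tested and nearly all called ones. The hydroxyacyl-CoA dehydrogenase gene hacd-1 (V, 1460369 to 1461613) was higher, with 227, 155 and 247 CPM in daf-2 and 28.8, 21.2 and 21.8 CPM in wild type (3.13 ± 0.23, adjusted p = 6.4e-06). The lipase genes lipl-5 (73.7, 55 and 135 CPM in daf-2 and 29.9, 25.8 and 22.6 CPM in wild type; 1.75 ± 0.37), lipl-2 and atgl-1 were higher too, lipl-2 not with the replicate block (0.0671). The acyl-CoA synthetase gene acs-2 (V, 15567394 to 15569897) had 116, 53.9 and 87.8 CPM in daf-2 and 27.2, 21 and 10.5 CPM in wild type (2.13 ± 0.61, adjusted p = 0.0427), a call lost with limma-voom (0.0558) and on leaving out both replicate 3 libraries (0.194), daf-2 replicate 1 (0.117), daf-2 replicate 3 (0.0766), wild-type replicate 1 (0.072), wild-type replicate 2 (0.123) and wild-type replicate 3 (0.128). Higher breakdown genes numbered 3 without daf-2 replicate 1 or 3 and without wild-type replicate 1, 2 or 3, and 2 without both replicate 3 libraries.

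In fatty acid synthesis 5 of 24 genes were higher (20.8%) and 6 lower (25%), against 4.54% and 6.26% over all genes. The delta-9 desaturase genes, whose enzymes make monounsaturated fatty acids, were split. The gene fat-7 (V, 7151353 to 7153146) had 0.48, 0.397 and 0.643 CPM in daf-2 and 12.9, 10.2 and 15.5 CPM in wild type (-4.66 ± 0.26, adjusted p = 7.43e-07). Its homologue fat-6 had 314, 325 and 510.1 CPM in daf-2 and 212, 187 and 248 CPM in wild type (0.83 ± 0.21, adjusted p = 0.0223), and fat-5 had 159, 165 and 173 CPM in daf-2 and 121, 102 and 109 CPM in wild type (0.58 ± 0.15, adjusted p = 0.0256). Genes of polyunsaturated fatty acid synthesis, fat-1, fat-3 and fat-4, were lower, with log2 changes of -0.83 ± 0.12, -0.83 ± 0.13 and -0.68 ± 0.17. The fatty acid synthase gene fasn-1 changed by -0.84 ± 0.22. The elongase gene elo-6 (IV, 5386629 to 5388559) had 123, 69.7 and 125 CPM in daf-2 and 37.5, 40.1 and 39.1 CPM in wild type (1.45 ± 0.29, adjusted p = 0.00675), a call lost without both replicate 3 libraries (0.0603). Higher synthesis genes numbered 3 without wild-type replicate 3, 2 without wild-type replicate 1, 1 without daf-2 replicate 3 and without wild-type replicate 2, and 0 without both replicate 3 libraries. Among 17 lipid-binding genes, far-3 (V, 12996787 to 12997522), for a fatty acid and retinol binding protein, had 69.3, 96.3 and 78.8 CPM in daf-2 and 482, 538 and 432 CPM in wild type (-2.57 ± 0.34, adjusted p = 0.000413) and led 5 lower members (3 without both replicate 3 libraries). On the higher side far-7 (II, 319789 to 321110; 1.49 ± 0.23, adjusted p = 0.000996) and lbp-8 were called (1 without daf-2 replicate 1, without wild-type replicate 2 or 3 and without both replicate 3 libraries).

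More carbohydrate genes were higher than lower. Of 32 genes of trehalose metabolism, the glyoxylate cycle and gluconeogenesis 7 were higher (21.9%) and 3 lower (9.38%), with a median of 0.08. Over all genes the shares were 4.54% and 6.26%. The trehalose synthase gene tps-1 had 79.4, 120.0 and 95.6 CPM in daf-2 and 52.4, 50 and 60.2 CPM in wild type (0.86 ± 0.17). Its homologue tps-2 had 81.4, 84.2 and 109.6 CPM in daf-2 and 52.9, 49.3 and 57.2 CPM in wild type (0.79 ± 0.15). The gluconeogenic enzyme gene pck-1 had 70.1, 116 and 72.5 CPM in daf-2 and 41.3, 41.9 and 45.3 CPM in wild type (1.01 ± 0.19). The aldolase gene aldo-2 had 719, 790.4 and 680.2 CPM in daf-2 and 450.1, 412 and 468 CPM in wild type (0.72 ± 0.12). Trehalase genes, whose enzymes split trehalose, went both ways: tre-4 (X, 13472155 to 13475926) changed by 1.35 ± 0.19 (adjusted p = 0.000552), and tre-3 (V, 11709769 to 11715903) and tre-5 by -1.21 ± 0.28 and -0.96 ± 0.23 (adjusted p = 0.0155 and 0.0161). The tre-3 call was lost without daf-2 replicate 1 (0.055) and wild-type replicate 3 (0.056), and the count of lower genes was 1 without wild-type replicate 1 or 3.

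The 6 vitellogenin genes code for the yolk proteins, which the intestine makes. Among them vit-5 (X, 3403471 to 3408603) was the single member called by this test. It had 4979.7, 3569 and 8325 CPM in daf-2 and 22643, 24210.0 and 26740.0 CPM in wild type (-2.12 ± 0.31, adjusted p = 0.000749). For vit-1, vit-2, vit-4 and vit-6 the genotypes overlapped. The gene vit-2 (X, 5101042 to 5106169) had 14849, 9884 and 25124 CPM in daf-2 and 21427, 19814 and 25236 CPM in wild type (adjusted p = 0.475). The gene vit-6 (IV, 8261157 to 8266459) had 14742, 9193 and 23185 CPM in daf-2 and 10774, 9140.0 and 12405 CPM in wild type (adjusted p = 0.319). The other 3 were not called either. The gene vit-1 (X, 7727889 to 7733168) had 194, 72.3 and 180.1 CPM in daf-2 and 195, 204 and 186 CPM in wild type (adjusted p = 0.457). For vit-3 (X, 3567355 to 3572549) the levels were 181, 39.8 and 157 CPM in daf-2 and 204, 218 and 219 CPM in wild type (adjusted p = 0.257). For vit-4 (X, 3558769 to 3563965) they were 243, 41.6 and 229 CPM in daf-2 and 239.9, 256 and 257 CPM in wild type (adjusted p = 0.502). In these 3 genes daf-2 replicate 2 was far below the other 5 libraries. Of the daf-2 libraries it had the lowest level for all 6 genes. It was also the lowest for the intestinal markers, whose sums were 178, 97.5 and 190 CPM in daf-2 and 212, 211 and 211 CPM in wild type. Values of vit-5, vit-4 and vit-3 are uncertain, since these copies are near-identical.

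Among the pud genes, named for proteins raised in daf-2 mutants, several were lower as RNA in old animals. Of 20 pud, dao and dod genes 5 were higher (25%) and 8 lower (40%), against 4.54% and 6.26% over all genes. The gene pud-1.2 had 8.63, 3.37 and 14.7 CPM in daf-2 and 54, 62.2 and 103.8 CPM in wild type (-3.04 ± 0.46). The gene pud-4 had 0.639, 0.27 and 0.953 CPM in daf-2 and 4.52, 7.01 and 9.85 CPM in wild type (-3.54 ± 0.47). The symbol pud-2.2 is carried by 2 identifiers with equal counts in the daf-2 libraries, 1 called lower (V, 2329444 to 2329954; -4.13 ± 0.48) and 1 with no read in wild type and called higher (V, 2323014 to 2323524). Their values are uncertain. The sum of the 2 was 7.59, 2.16 and 11.2 CPM in daf-2 and 47.1, 56.6 and 78.1 CPM in wild type. Of 51 autophagy and lysosome genes 3 were higher and 2 lower (1 without daf-2 replicate 1 or 2, without wild-type replicate 1, 2 or 3 and without both replicate 3 libraries). These shares, 5.88% and 3.92%, were near or below the 4.54% and 6.26% over all genes. The autophagy receptor gene sqst-1 (IV, 12034282 to 12036891) had 501, 536 and 568 CPM in daf-2 and 298, 301 and 328 CPM in wild type (0.79 ± 0.11, adjusted p = 0.000522).

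Among structural and tissue genes the shares called lower were 12.5% for cuticle collagens and 23.8% for the intestine list, against 6.26% over all genes. For the muscle, hypodermis and pharynx lists they were 3.33%, 5.88% and 6.67%, below or near that share. Of 120 cuticle collagen genes 15 were lower and 6 higher (3 without wild-type replicate 1, and 2 without wild-type replicate 3 and without both replicate 3 libraries), with a median of 0.08. The smallest p-values were those of col-43 (V, 8049703 to 8050911; 0.24, 0.451 and 0.394 CPM in daf-2 and 3.37, 3.87 and 3.44 CPM in wild type; -3.23 ± 0.28, adjusted p = 2e-05) and col-142 (V, 6831177 to 6832256; 11.5, 7.25 and 8.95 CPM in daf-2 and 2.22, 2.37 and 3.18 CPM in wild type; 1.82 ± 0.33, adjusted p = 0.00354). Among the lower collagens col-181 had 393, 231 and 409 CPM in daf-2 and 839, 869 and 921 CPM in wild type. The lower gene col-122 had 319.9, 180.1 and 291 CPM in daf-2 and 625, 625 and 673 CPM in wild type. Of 30 muscle genes 1 was lower, the troponin I gene tni-3 (V, 16833638 to 16835128; -0.82 ± 0.22, adjusted p = 0.0299). Its call was lost without both replicate 3 libraries (0.0835), daf-2 replicate 1 (0.064), daf-2 replicate 2 (0.115), wild-type replicate 1 (0.105) and wild-type replicate 3 (0.0767), and with libraries thinned to equal depth (0.0555). In the intestine list 5 of 21 were lower: cpr-1, mtl-2, asp-1, the intermediate filament gene ifb-2 (28.1, 7.59 and 20.5 CPM in daf-2 and 52.4, 49.3 and 54.3 CPM in wild type; -1.49 ± 0.33) and the zinc transporter gene cdf-2. The higher member, the esterase gene ges-1 (V, 1427653 to 1432137), had 37.5, 36.3 and 70.6 CPM in daf-2 and 27, 23 and 24.8 CPM in wild type (0.95 ± 0.27, adjusted p = 0.0407), a call lost with the replicate block (0.0694) with limma-voom (0.0694) and without both replicate 3 libraries (0.267), daf-2 replicate 3 (0.16), wild-type replicate 1 (0.0906), wild-type replicate 2 (0.143) and wild-type replicate 3 (0.0973). The hypodermis list had 1 lower member of 17, the kinase gene nekl-2 (I, 6663161 to 6665160; 10.3, 9.18 and 10.3 CPM in daf-2 and 23.5, 21.8 and 26.3 CPM in wild type; -1.26 ± 0.15, adjusted p = 0.000158), and 2 with the replicate block. The pharynx list had 1 in each direction of 15, phat-2 (I, 5046394 to 5048003; 2.0 ± 0.42, adjusted p = 0.00801) and the troponin I gene tni-4 (IV, 5204591 to 5207124; -0.97 ± 0.16, adjusted p = 0.00152), and 2 lower without daf-2 replicate 2. Of 10 genes of coelomocytes and other small tissues 1 was lower, the aquaporin gene aqp-8 (X, 4702167 to 4704977; -1.66 ± 0.40, adjusted p = 0.0179). That call was lost without both replicate 3 libraries (0.0633), daf-2 replicate 2 (0.0643), daf-2 replicate 3 (0.0626) and wild-type replicate 1 (0.0738).

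Of 36 neuronal genes tested 2 were lower (1 without daf-2 replicate 2 or 3, without wild-type replicate 3 and without both replicate 3 libraries) and 1 higher. These shares, 5.56% and 2.78%, were below the 6.26% and 4.54% over all genes. So were those of the neuropeptide genes, at 2.41% in each direction. The tyramine beta-hydroxylase gene tbh-1 (X, 15500256 to 15504895), which makes octopamine, had 229, 210.3 and 268 CPM in daf-2 and 414, 402 and 442 CPM in wild type (-0.83 ± 0.17, adjusted p = 0.0063). The synaptic vesicle gene rab-3 changed by -0.80 ± 0.19. The synaptic gene unc-13 (I, 7422785 to 7454116) had 25.5, 13.4 and 25.8 CPM in daf-2 and 12.4, 13.1 and 12.1 CPM in wild type (0.78 ± 0.23, adjusted p = 0.0458), a call lost without both replicate 3 libraries (0.284), daf-2 replicate 1 (0.145), daf-2 replicate 3 (0.155), wild-type replicate 1 (0.127), wild-type replicate 2 (0.113) and wild-type replicate 3 (0.117). It was also lost in the fits of 6 libraries with the block (0.0641) and without it (0.0755), with the block within each age (0.0581), with limma-voom (0.103) and with 2 other scalings (0.0578 and 0.0582). Of 83 neuropeptide genes flp-34 (V, 1027891 to 1033404; 2.8, 2.69 and 2.3 CPM in daf-2 and 0.821, 1.07 and 0.838 CPM in wild type; 1.5 ± 0.23, adjusted p = 0.00105) and nlp-17 were higher (4 without daf-2 replicate 2, and 1 without wild-type replicate 2), and nlp-57 (X, 11317050 to 11318055; -1.79 ± 0.44, adjusted p = 0.0191) and snet-1 lower (1 without both replicate 3 libraries, and 0 without daf-2 replicate 1 or 2 and without wild-type replicate 1 or 2). With the replicate block snet-1 was not called (0.0506), which left 1 lower.

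The calls of sperm genes depended on the block. These genes are expressed when hermaphrodites make their sperm, before adulthood. Of 67 tested, among them the major sperm protein genes, 6 were lower and 0 higher, and the median change was -1.57. The share called lower was 8.96%, against 6.26% over all genes. For each gene the mean of the 6 libraries was subtracted on the scale of log2(CPM + 0.5), and the median over these genes was 0.11, -0.41 and -1.72 in daf-2 and 1.36, 1.16 and -0.47 in wild type. Wild-type replicate 3 thus lay below daf-2 replicates 1 and 2, while in each numbered pair the daf-2 library was lower. The 6 called members included ssp-37 (I, 12561040 to 12561560; 2.56, 1.35 and 2.84 CPM in daf-2 and 5.91, 8.39 and 5.03 CPM in wild type; -1.53 ± 0.29, adjusted p = 0.00467), spe-11 (4.96, 3.34 and 1.78 CPM in daf-2 and 12, 12.2 and 5.82 CPM in wild type; -1.59 ± 0.41) and msp-36 (4.52, 3.35 and 1.31 CPM in daf-2 and 19.2, 16.9 and 3.94 CPM in wild type; -2.14 ± 0.61, and not called with the replicate block, 0.0656). A block shared by both ages left the count at 6, a block within each age raised it to 53, and in the fit of 6 libraries the block gave 55, against 3 without it. Lower sperm genes numbered 16 without wild-type replicate 3, 2 without daf-2 replicate 2, and 1 without daf-2 replicate 3 and without wild-type replicate 1 or 2. Sequences of the msp genes are near-identical, so that values of single members are uncertain.

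**Figure D4:**
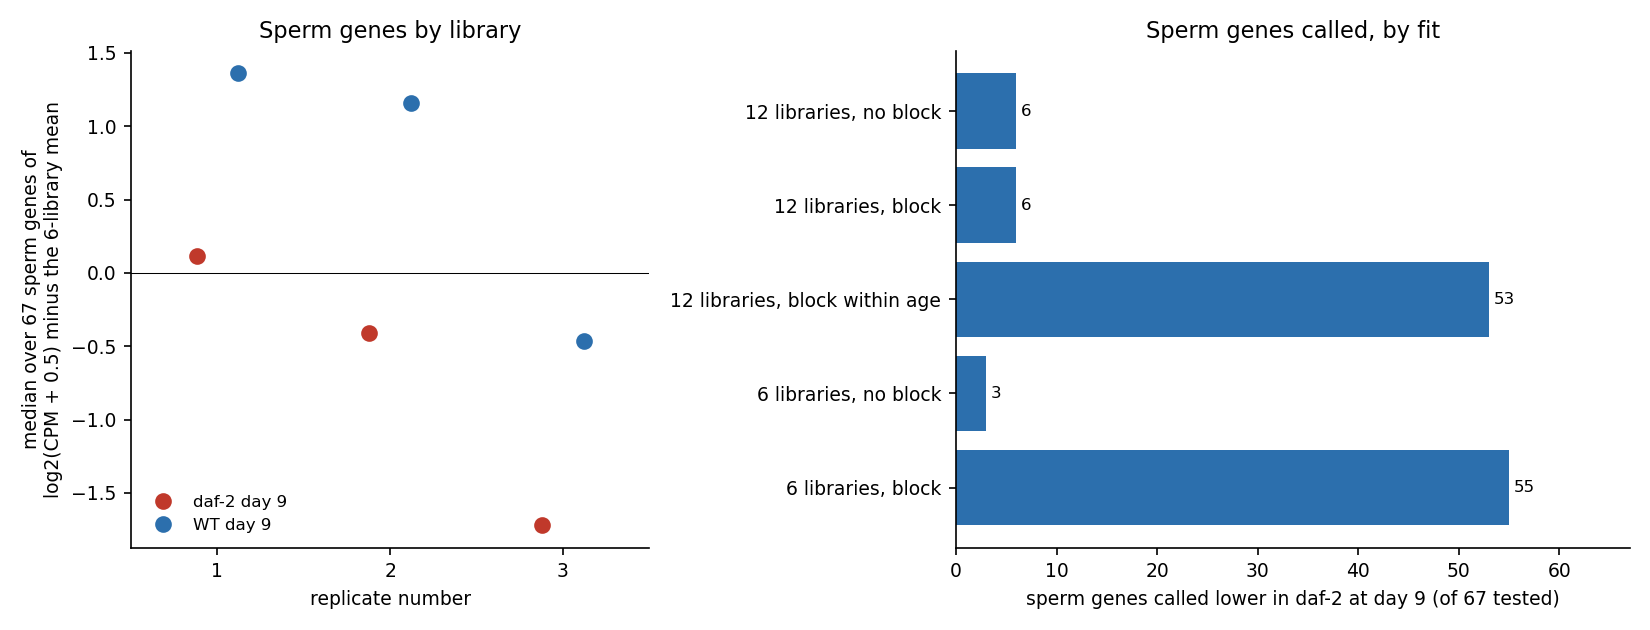
Left, the median over 67 sperm genes of log2(CPM + 0.5) minus the mean of the 6 day 9 libraries, by replicate number, in daf-2 (red) and wild type (blue). Right, the number of these genes called lower in daf-2 by 5 fits, which ran from 3 to 55.

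Other germline genes had nearly no calls. Of 53 oocyte and germline genes 1 was lower, the eggshell gene perm-2 (IV, 1126790 to 1128865), with 1098, 984 and 1148 CPM in daf-2 and 1726, 1321 and 1881 CPM in wild type (-0.61 ± 0.18, adjusted p = 0.0499). It was lost with the replicate block (adjusted p = 0.0627) with RLE scaling (0.0572) and without both replicate 3 libraries (0.215), daf-2 replicate 1 (0.112), daf-2 replicate 2 (0.157), daf-2 replicate 3 (0.0821), wild-type replicate 1 (0.142) and wild-type replicate 3 (0.163). Of 24 genes of the zygotic genome 2 were higher (1 without daf-2 replicate 1 or 3, without wild-type replicate 1, 2 or 3 and without both replicate 3 libraries), pes-10 (II, 12846191 to 12847836; 1.68, 1.17 and 1.02 CPM in daf-2 and 0.246, 0.268 and 0.209 CPM in wild type; 2.37 ± 0.48, adjusted p = 0.00675) and sdz-31. By DESeq2 7 were higher and by limma-voom 0, pes-10 then standing at 0.0548. With the replicate block 5 were, sdz-28, vet-1 and vet-2 being added at 1.34 ± 0.45, 1.26 ± 0.38 and 1.39 ± 0.42. Embryo markers summed to 5.2 to 6.15 CPM in daf-2 and 3.77 to 4.44 CPM in wild type. Of 51 histone genes his-71 and his-9 (II, 13824849 to 13825259; 0.98 ± 0.24, adjusted p = 0.0219) were higher. This share, 3.92%, was below the 4.54% over all genes. The count was 1 without daf-2 replicate 1 or 3 and without wild-type replicate 2 or 3. It was 0 without daf-2 replicate 2, without wild-type replicate 1 and without both replicate 3 libraries. The symbol his-9 is carried by 3 identifiers, which together had 9.27, 12.84 and 9.47 CPM in daf-2 and 4.31, 5.02 and 6.28 CPM in wild type.

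Core machinery of the cell had nearly no calls at day 9. By edgeR, and also by DESeq2 and limma-voom, 0 of 33 proteasome, 83 cytosolic ribosomal protein, 65 mitochondrial ribosomal protein and 71 nuclear respiratory chain genes were called in either direction. At an unadjusted p under 0.05 edgeR gave 0, 1, 0 and 1 of them as higher and 0, 0, 2 and 1 as lower. With the replicate block over 12 libraries, and in both fits of 6 libraries, 1 cytosolic ribosomal protein gene was called higher. The block over 6 libraries called 1 respiratory chain gene higher and 2 lower. Without the block, the fit of 6 libraries called 1 respiratory chain gene higher and 1 mitochondrial ribosomal protein gene lower. At an adjusted p under 0.05 by the same test at day 1, 11 of the 33 proteasome genes were lower. Transcripts of the mitochondrial genome were higher for 3 of 12 genes, with a median of 0.58, and for 5 with the replicate block. The respiratory complex I gene ND1 (MtDNA, 1763 to 2635) had 214, 201 and 201 CPM in daf-2 and 137, 126 and 118.8 CPM in wild type (0.69 ± 0.11, adjusted p = 0.00161). Higher mitochondrial transcripts numbered 1 without daf-2 replicate 1, without wild-type replicate 1 or 3 and without both replicate 3 libraries.

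Set beside the same comparison in young adults, the effect of genotype at day 9 had fewer higher genes. At day 1, in animals of the same 2 strains, 1600 genes (10.3%) were higher and 786 (5.06%) lower in daf-2. Of the 704 genes higher at day 9, 396 were higher, 4 lower and 304 not called at day 1, and of the 971 lower at day 9, 155 were lower, 72 higher and 744 not called. The test of the difference itself, the log2 change at day 9 minus that at day 1, called 89 genes (0.573%) as higher and 732 (4.72%) as lower. The counts were 50 and 463 without daf-2 replicate 1, 41 and 464 without daf-2 replicate 2, 69 and 797 without daf-2 replicate 3, 44 and 484 without wild-type replicate 1, 29 and 404 without wild-type replicate 2, and 29 and 415 without wild-type replicate 3.

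Lysozyme and saposin-like genes were among those lower. The test called 8 of 13 lysozyme, 12 of 24 saposin-like and 7 of 27 DAF-16 target genes as lower, and 0 in each as higher. At day 1, 3 lysozyme genes were higher and 1 lower in daf-2, and 10 saposin-like genes were higher and 1 lower. The gene ins-7 changed by -0.72 (adjusted p = 0.307) at day 1, when it had 0.99, 1.21 and 1.07 CPM in daf-2 and 1.15, 0.66 and 3.21 CPM in wild type. The difference between the ages was -6.60 ± 0.67 (adjusted p = 0.00025). For cpr-4 the day 1 change was 2.50, with 189.9, 170.4 and 76.8 CPM in daf-2 and 25, 20.3 and 31.8 CPM in wild type, and the difference -6.60 ± 0.80 (adjusted p = 0.000894). The arginine kinase gene argk-1 (V, 16103894 to 16105952) had 1.84, 0.577 and 1.223 CPM in daf-2 and 9.69, 21.1 and 12.1 CPM in wild type at day 9 (-3.60 ± 0.43, adjusted p = 0.000196) and a day 1 change of 2.27 (difference -5.87 ± 0.62). The gene spp-9 was higher in daf-2 at day 1, with 5.53, 6.16 and 33.7 CPM in daf-2 and 0, 0.06 and 0 CPM in wild type, and lower at day 9 (adjusted p of the difference 0.00154). For clec-60 the day 1 levels were 1.03, 1.32 and 6.77 CPM in daf-2 and 0, 0 and 0.0342 CPM in wild type (adjusted p of the difference 0.00233). Wild type had 1 count of each gene at day 1, so the sizes of these differences are uncertain: the day 1 ratio of daf-2 to wild type was 1016 for spp-9 (182 to 40152) and 204 for clec-60 (36.1 to 8076), with exact 95% intervals for counting error only. In spp-9, cpr-4 and argk-1 the genotypes thus changed order between the ages.

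Among genes that averaged 10 CPM or more where they were higher, and met the other conditions for naming, the largest positive differences between the ages were those of comt-4, acs-2, acdh-2, sosi-1 and ugt-1. The gene comt-4 had 8.62, 8.74 and 4.59 CPM in daf-2 and 17.9, 43.4 and 4.14 CPM in wild type at day 1, and the difference was 5.2 ± 0.84 (adjusted p = 0.0052). For acs-2 it was 3.75 ± 0.86 (adjusted p = 0.0272), with 13.4, 14.4 and 20.2 CPM in daf-2 and 90, 49.1 and 8.92 CPM in wild type at day 1. The acyl-CoA dehydrogenase gene acdh-2 (II, 5544778 to 5547492) was not called at day 9 (5.43, 9.84 and 7.98 CPM in daf-2 and 12.7, 16.16 and 15.5 CPM in wild type; adjusted p = 0.253), although it was called lower in the fits of 6 libraries with the block (0.00474) and without it (0.0272). At day 1 its log2 change was -3.81 (difference 2.88 ± 0.70). The gene sosi-1 (I, 4460146 to 4462704), which overlaps eri-6 on the other strand, had 26.8, 34.8 and 28.5 CPM in daf-2 and 8.62, 5.4 and 6.74 CPM in wild type at day 9 (2.12 ± 0.23), with a difference of 1.91 ± 0.33. The glycosyltransferase gene ugt-1 (V, 10395663 to 10397820) had 35.2, 55.6 and 63.3 CPM in daf-2 and 14.7, 17.2 and 23.9 CPM in wild type (1.47 ± 0.30), with a difference of 1.73 ± 0.42. The study genes daf-16, hsf-1, skn-1, pmk-1 and sod-3 were not called as different between the ages (adjusted p = 0.118, 0.261, 0.104, 0.249 and 0.174), while zip-10 was (-2.25 ± 0.46, adjusted p = 0.0155).

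**Figure D5:**
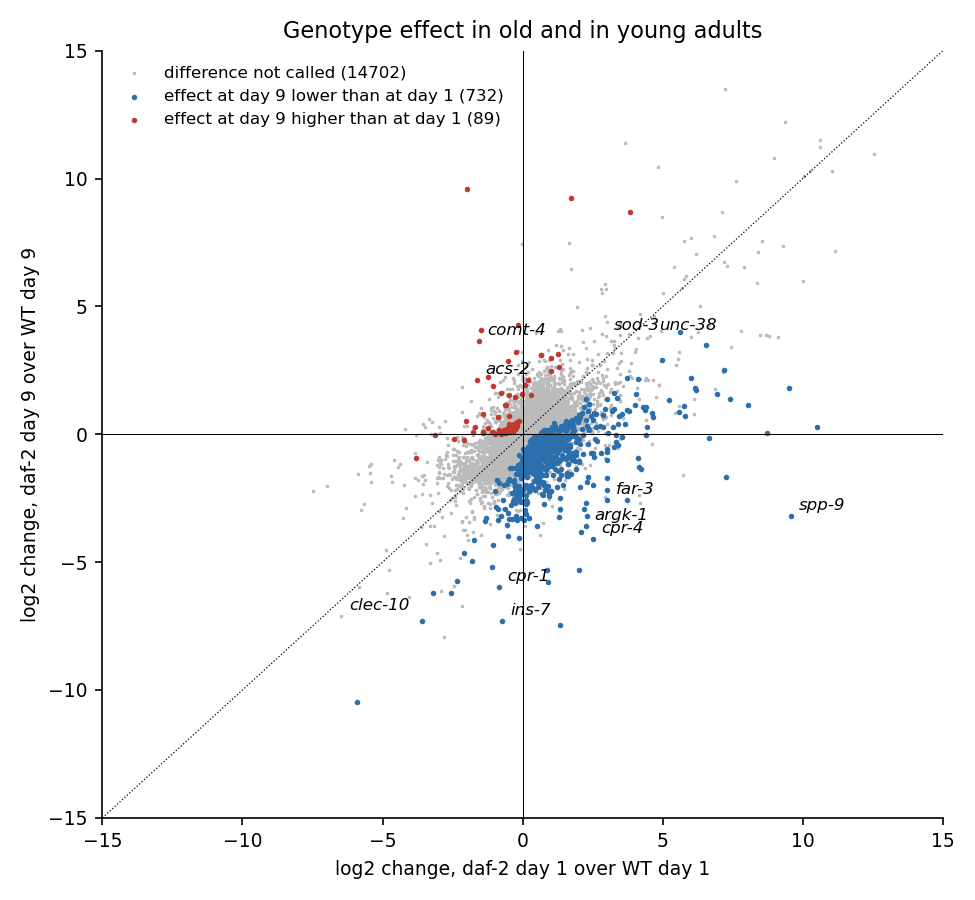
Log2 change, daf-2 over wild type, at day 9 (vertical axis) and at day 1 (horizontal axis), 1 point per gene tested, with the line of equal change dotted. The 732 blue genes, called as lower at day 9 than at day 1, lie below the line, and outnumber the 89 red genes above it.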

How the data were processed

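RNA was measured in whole animals with unstranded TruSeq libraries, per the labels' protocols. The authors deposited raw counts, 1 whole number for each gene in each library. The build is WBcel235 (ce11), and RSEM 1.3.1, STAR 2.7.0e and DESeq2 1.22.2 are listed without their roles, per the submitters' processing notes. The sources used here do not give how reads matching several genes were counted, so members of near-identical families are uncertain, as are genes that overlap another on either strand. Identifiers were matched to the WBcel235 annotation, which held 46603 of 46778 and named 43818. Coordinates are 1-based on that build. Every row holds a gene identifier.

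The deposited counts of all 12 libraries (20322128 to 47447136 counts each) entered edgeR 4.0.16 in R 4.3.3, with its filter on low counts (minimum count 10), TMM scaling and 1 fit of the 4 group means, which share an estimate of spread. The quasi-likelihood test compared daf-2 with wild type at day 9, at day 1, and the day 9 minus the day 1 effect. P-values were adjusted by the Benjamini-Hochberg method over the 15523 genes tested. The standard error is the log2 change over the square root of F. Replicate libraries of a group differed by more than sampling noise and all were kept. The labels call them biological repeats without naming cultures, so p-values measure the spread between these samples. Exact tests over 3 libraries against 3 cannot go below p = 0.1 and were not used.

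The labels do not say that a replicate number marks a shared batch. Deviations of same-numbered day 9 libraries from their group means correlated at 0.366, 0.117 and 0.596 across genes, each above 0.1. Above 0.1 as well were daf-2 replicate 1 with wild-type replicate 2 (0.269) and daf-2 replicate 2 with wild-type replicate 1 (0.216). These values set replicate 3 of both genotypes apart, and do not show that replicates 1 and 2 pair by number. The block was an alternative to the main fit, which has none. At day 1 the same correlations were 0.267, 0.426 and -0.0753, so replicate 3 did not pair there. The block over 12 libraries is given where it changed the call of a gene in the text, or moved a count by over 1.5 times. The block over 6 libraries moved further list counts, and only some are given. It called 12 pals genes and 18 C-type lectins as higher. For nuclear hormone receptors it gave 8 higher and 10 lower, and for UDP-glycosyltransferases 9 and 17. Lower fbxa genes then numbered 11, higher collagens 12 and higher zygotic genes 11. Over all genes the same fit gave 1420 higher and 2077 lower.

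Members of 48 gene lists, and the lists themselves, were chosen with earlier results of these data known. The rule for named genes took the 10 largest and the 10 smallest log2 changes. These had to be called genes with a proper name whose single libraries did not overlap, with a mean of 10 CPM or more where they were higher and 10 or more counts in total where they were lower. The rule also took 10 study genes, the vitellogenins, the called member of each list with the smallest p in each direction, and the 5 largest and 5 smallest differences between ages. Other members given as examples were chosen after their values were seen. Alternatives were other scalings, filters, DESeq2 1.42.0, limma-voom (limma 3.58.1), equal depth, fits of 6 libraries, the block, and leaving out each day 9 library.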

Additional observations from a re-analysis of the deposited data

Results flagged for a closer look

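Of the 97 genes named by the rule, 37 differed between ages in the effect of daf-2 relative to wild type by edgeR's test of the day 9 minus day 1 difference (adjusted p under 0.05). The values that follow are that difference on the log2 scale, and no explanation of them was tested. A negative difference means that the daf-2 effect was lower at day 9 than at day 1.

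In 15 of them the fitted daf-2 effect was below 0 at day 9 and above 0 at day 1. These signs alone show no reversal, since several day 1 effects were near 0. They were 0.04 for cyp-14A5, 0.12 for trx-3, 0.17 for sgk-1, 0.18 for hlh-30, 0.21 for spp-23 and 0.25 for thn-2. For clec-60 the effect at day 9 was not called. The differences were spp-9 -12.76, clec-60 -8.96, cpr-4 -6.60, argk-1 -5.87 and far-3 -5.59 for a saposin-like, a C-type lectin, a cathepsin B-like, an arginine kinase and a fatty acid and retinol binding protein gene. Smaller ones were trx-3 -2.68, spp-1 -2.45, spp-23 -2.43, thn-2 -2.41 and zip-10 -2.25. The smallest were gst-22 -2.25, cyp-14A5 -1.36, sgk-1 -1.34, nhr-14 -1.27 and hlh-30 -0.83. For spp-9 and clec-60, and for clec-61 named further on, wild type had 1 count at day 1, so their fitted differences depend on the prior count and give no reliable size or rank. The day 1 ratio of daf-2 to wild type was 1016 for spp-9 (182 to 40152), 204 for clec-60 (36.1 to 8076) and 92 for clec-61 (16.11 to 3671), with exact 95% intervals for counting error only.

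In 13 genes both fitted effects were below 0, and the one at day 9 lay further from 0. At day 1 some were near 0, as in egl-43 (-0.06) and nekl-2 (-0.14). The differences were ins-7 -6.60, cpr-1 -5.14, ilys-5 -4.54, asp-17 -3.42, cpr-5 -3.01 and fat-7 -2.55. The others were pud-2.2 -2.41, sysm-1 -2.27, cpt-5 -1.96, vit-5 -1.91, egl-43 -1.28, nekl-2 -1.12 and nlp-27 -1.09.

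In 3 genes both effects were above 0 and the one at day 9 was smaller: the differences were clec-61 -4.33, icmt-1 -3.06 and pals-26 -1.96. For 6 genes the difference was above 0, namely comt-4 5.2, acs-2 3.75, acdh-2 2.88, sosi-1 1.91, gst-3 1.91 and ugt-1 1.73. Of these, acdh-2 had fitted effects below 0 at both ages (-0.92 ± 0.48 at day 9 and -3.81 at day 1). The groups hold 3 libraries each, too few for a test of single outlying libraries.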

How the results depend on the processing

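Against the 704 higher and 971 lower genes of the day 9 comparison and the 89 higher and 732 lower genes of the day 9 minus day 1 difference, leaving out 1 day 9 library at a time gave 399 to 547 higher and 622 to 875 lower genes, and 29 to 69 higher and 404 to 797 lower for the difference between ages. The replicate block over all 12 libraries gave 788 and 983 at day 9, and 659 higher and 906 lower genes were called by both fits. Among the 97 genes picked by the naming rule it ended the call of ges-1, perm-2 and pals-1, made that of clec-60 and changed no other call. With the 6 day 9 libraries alone, the replicate block gave 1420 and 2077, and the fit without it 1150 higher and 1215 lower. Of the alternatives chosen after seeing the data, a replicate block within each age gave 1035 higher and 1582 lower genes, and 137 higher for the difference between ages. Leaving out both day 9 replicate 3 libraries gave 359 higher and 690 lower genes, and 27 and 483 for the difference between ages. For that difference the stricter filter gave 147 higher genes, and DESeq2 481 higher and 1155 lower. At day 9, DESeq2 gave 950 and 1287, and limma-voom 728 and 1200. The cause of these shifts was not tested. Other scalings moved the median log2 change of all genes to between -0.0015 and 0.0375. Across settings 1742 of 1842 results for named genes kept direction and call, 91 lost the call, 9 gained it and 0 reversed. Most of these genes were picked by change or p-value in these same data, so their stability was in part fixed in advance. Of the 97 named genes 85 were called at day 9, and a gene called in neither fit counts as kept. Equal depth gave 694 higher and 965 lower genes, and 24222 of 46778 listed genes had 0 counts in all 12 libraries and could not be compared.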

Other observations

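The genes in the first paragraph were chosen by level after their values were seen. Several of the most abundant called genes lie outside the lists. The gene srlf-7 had 742, 564 and 1476 CPM in daf-2 and 3968, 4211 and 4268 CPM in wild type (log2 change -2.16 ± 0.32, adjusted p 0.000775 by edgeR), and each daf-2 library lay below each wild-type library. The gene ule-5 had 169.6, 93.4 and 485 CPM in daf-2 and 1103, 1612 and 1524 CPM in wild type (log2 change -2.50 ± 0.45, adjusted p 0.00297 by edgeR). Y62H9A.5 had a log2 change of -2.36 ± 0.40 and skpo-1, a peroxidase gene, of -1.37 ± 0.19. Among higher genes, cpi-1, which encodes a cystatin that inhibits cysteine proteases, had 1855, 2640.5 and 1572 CPM in daf-2 and 669, 977 and 667 CPM in wild type (log2 change 1.39 ± 0.34, adjusted p 0.0186 by edgeR). The gene hex-1, encoding a hexosaminidase, had a log2 change of 1.18 ± 0.35 with an adjusted p of 0.0477 by edgeR, and was not called with the replicate block (0.0528).

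Called genes were spread over all chromosomes. The share of tested genes called higher in daf-2 day 9 animals was 2.83% on chromosome I, 4.72% on II, 2.81% on III, 4.1% on IV, 6.98% on V and 5.13% on X. The share called lower was 3.43% on chromosome I, 5.45% on II, 3.69% on III, 7.4% on IV, 8.15% on V and 9.44% on X. Of 94 genes called at least 8-fold higher, 54 lie on chromosome V. Of these, 15 fall in the 204 kb window in which wild type had 0 or 1 counts per gene. That window was drawn around genes picked for having no read in wild type at day 9. Of 14 mitochondrially encoded genes tested, 3 were called higher and 0 lower.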
